A study of Rattus norvegicus with 12 samples.

Results

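*Tnc*, *Spp1* and *Postn* are 3 genes of the matricellular group, chosen here by name from 9394 genes that passed the authors' filter on low counts and 17941 genes in all. They were measured in 12 cultures of primary astrocytes (ASTRs) of young adult female Wistar rats. The 6 gmASTR cultures came from the cerebral cortex after the meninges were removed, and the 6 wmASTR cultures from the rest of the brain without the amygdala, which is mainly white matter but includes hippocampus, thalamus and basal ganglia. Each animal gave both kinds of culture in 1 preparation. The cultures carried no transgene or treatment, were passaged with trypsin at least once and were harvested after 20 days in poly-L-lysine-coated flasks. The label wmASTR therefore stands for non-cortical tissue and not for a dissected white matter tract. Whether the cultures of a group came from separate animals is not stated for each replicate, so p-values measure the spread between these cultures.

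Matricellular proteins are secreted into the extracellular matrix without being its building blocks, and act by binding cell surface receptors, growth factors and matrix fibres. Tenascin-C (*Tnc*) is a large multimeric glycoprotein that loosens cell adhesion and is made by astrocytes and their precursors during development and again after injury. Osteopontin (*Spp1*) is a small phosphorylated protein that binds integrins and CD44, and it is well known as a product of activated microglia and macrophages as well as of bone cells. Periostin (*Postn*) binds integrins, tenascin-C and fibronectin and takes part in collagen crosslinking, and it is typical of fibroblasts and other mesenchymal cells. All 3 genes are known to respond to tissue damage.

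The sequences upstream of the 3 genes are shown because the genes were higher in the same cultures. Each run holds the 150 bases before the RefSeq start of 1 transcript in GRCr8, read 5′ to 3′ on the strand of the gene, with matches to the searched motifs in capitals. *Tnc* lies on the minus strand with this window at chr5:82476132-82476281, *Spp1* on the minus strand at chr14:5619805-5619954 and *Postn* on the plus strand at chr2:140677911-140678060.
Tnc: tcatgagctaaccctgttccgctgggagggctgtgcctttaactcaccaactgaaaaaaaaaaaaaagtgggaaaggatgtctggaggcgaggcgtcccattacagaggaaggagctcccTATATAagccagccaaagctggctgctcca
Spp1: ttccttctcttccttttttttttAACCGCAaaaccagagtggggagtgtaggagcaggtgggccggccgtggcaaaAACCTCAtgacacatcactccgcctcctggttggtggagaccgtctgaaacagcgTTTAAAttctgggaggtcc
Postn: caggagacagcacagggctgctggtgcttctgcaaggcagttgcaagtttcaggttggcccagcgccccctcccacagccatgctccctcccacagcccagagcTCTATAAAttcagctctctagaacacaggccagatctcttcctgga

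The motifs searched on both strands were TATANA (TATA box), TTTAAA (a variant TATA box), TGANTCA (AP-1), AACCNCA (RUNX), GGAATG (TEAD), CACGTG (E box) and TGACGTCA (CRE). TATANA, which 15.1% of all 33469 RefSeq promoter windows of this length hold, matched in *Tnc* from 30 to 25 bases before the start and in *Postn* from 46 to 39 bases before it, where 2 matches on opposite strands overlap. *Spp1* held no TATANA but held TTTAAA from 19 to 14 bases before the start, a motif in 6.82% of the windows. *Spp1* also held AACCNCA at 2 places, AACCGCA from 127 to 121 and AACCTCA from 74 to 68 bases before the start, against 7.52% of windows with at least 1 match. AP-1 letters (3.69% of windows), TEAD letters (7.40%), E box letters (3.74%) and CRE letters (1.36%) were in none of the 3 windows. The GC content was 50.7% in *Tnc*, 52.0% in *Spp1* and 58.0% in *Postn*, with a median of 52.7% over all windows. No motif of this set was in all 3 windows. These matches describe letters and no binding was measured.

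Libraries were made with a kit that reads the 3′ end of each polyadenylated transcript, so a count is not expected to grow with transcript length. Other differences between genes in how well they are counted were not tested, so levels of different genes compare only roughly. Between 4896788 and 6325234 reads per gmASTR library and between 5337270 and 7169999 per wmASTR library were counted on the genes of the filtered table. Levels are given as CPM, counts scaled by that total, and 3 counts, taken as the floor, were worth at most 0.613 CPM. Of 14 astrocyte markers 8 have a name here, and their summed level was 6608 to 8802 CPM in gmASTRs and 4708 to 8001 CPM in wmASTRs (6460 to 8001 CPM without wmASTR replicate 4). Most of this sum came from *Gja1*, the main gap junction gene of astrocytes, with means of 4813 and 4389 CPM, and from the filament gene *Vim*, with 2899 and 2365 CPM. The other markers were far lower and differed in direction, with 3 of 8 higher in wmASTRs and 1 higher in gmASTRs at an edgeR FDR under 0.05. The shares were 6.69% and 5.64% of all genes tested, and 6.92% and 28.8% of the named genes in the filtered table. The water channel gene *Aqp4* (0.20 and 3.69 CPM) and the glutamate transporter gene *Slc1a3* (8.25 and 21.4 CPM) were higher in wmASTRs, and the bicarbonate transporter gene *Slc4a4* (93.4 and 18.0 CPM) was higher in gmASTRs. *Gfap* is the intermediate filament gene that defines astrocytes in tissue. It had 0 counts in all 6 gmASTR libraries and 1.39 to 10.6 CPM in the wmASTR libraries. Its transcript was thus not detected in gmASTRs at this depth. The paper reports detectable GFAP protein by western blot in gmASTRs as well as wmASTRs, with more in wmASTRs. The missing counts therefore do not show that gmASTRs lacked the protein. wmASTR replicate 4 had the highest level of all 3 genes, stood apart from the other wmASTRs in *Tnc* and *Spp1*, and had the highest sum in several marker lists, and the main values are also given without it.

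The transcripts of all 3 genes were more abundant in wmASTRs than in gmASTRs, and no gmASTR library reached the level of any wmASTR library. By group means, *Tnc* was 5.66-fold, *Spp1* 8.02-fold and *Postn* 7.60-fold higher in wmASTRs. Together the 3 genes made up 138 ± 51.1 (gmASTR) and 886 ± 616 CPM (wmASTR) (mean ± SD, n = 6 each), and 638 ± 124 CPM in the 5 wmASTRs other than replicate 4. In bulk RNA, fewer cells of a type and less RNA per cell cannot be told apart.

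For *Tnc*, the gmASTR libraries ran from 39.7 CPM in replicate 4 to 160.5 CPM in replicate 1, with a median of 88.2 CPM. The wmASTR libraries ran from 291.7 CPM in replicate 2 to 1175 CPM in replicate 4, with a median of 363 CPM. Replicates 2, 3 and 5 of the wmASTRs lay within 3 CPM of each other, at 291.7, 292.9 and 294.7 CPM, and replicate 4 lay far above all others. The lowest wmASTR library was still 1.82-fold above the highest gmASTR library. The log2 fold change (wmASTR over gmASTR, so that positive values stand for more transcript in wmASTRs) was 2.58 (SE 0.37, edgeR quasi-likelihood test, Benjamini-Hochberg FDR = 0.000203).

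For *Spp1*, the gmASTR libraries lay between 21.7 CPM in replicate 5 and 47.4 CPM in replicate 1, with a median of 28.6 CPM, and replicates 2, 3 and 4 were almost equal at 28.6, 28.6 and 29.2 CPM. In wmASTRs the lowest library had 108 CPM, the median was 150 CPM and replicate 4 reached 690 CPM. That culture had 4.67 times the mean of the other wmASTRs, the widest such gap of the 3 genes. The groups did not overlap, with the lowest wmASTR 2.28-fold above the highest gmASTR. The log2 fold change was 3.08 (SE 0.41, edgeR FDR = 0.000111).

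*Postn* was the most evenly measured of the 3 genes in wmASTRs. Its gmASTR libraries had 19.7 to 25.3 CPM apart from replicate 3, which had 6.48 CPM and rests on 41 counts, the lowest count of any of the 3 genes in any library. The wmASTR libraries ran from 91.4 CPM in replicate 3 through a median of 134 CPM to 258 CPM in replicate 4. The gap between the groups was the widest of the 3 genes, with the lowest wmASTR 3.61-fold above the highest gmASTR. The log2 fold change was 3.00 (SE 0.30, edgeR FDR = 8.27e-06).

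**Figure D1:**
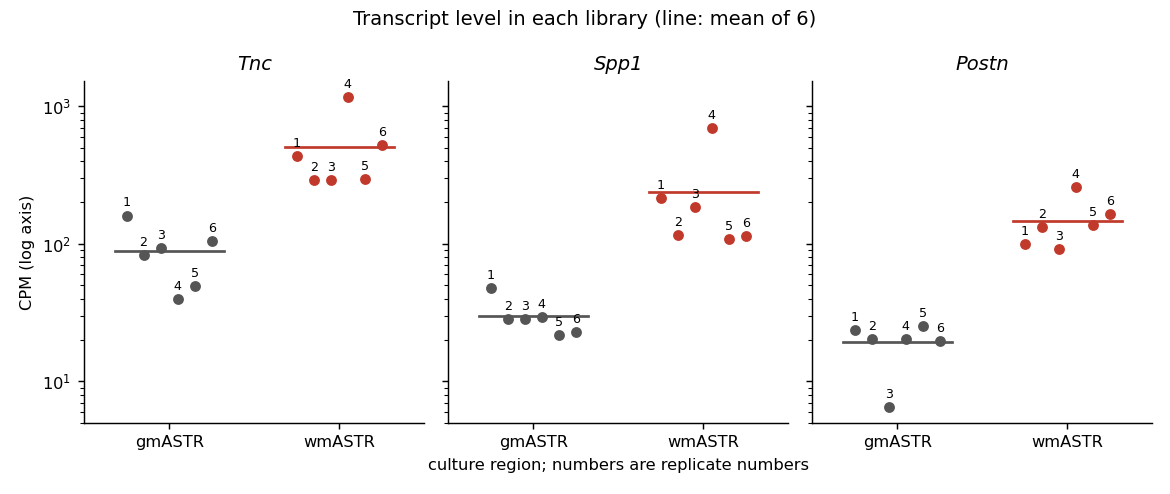
Level of *Tnc*, *Spp1* and *Postn* in each library, in CPM on a log axis, for 6 gmASTR and 6 wmASTR cultures. Each point is a library with its replicate number and each line the mean of 6, and in every panel the lowest wmASTR point lies above the highest gmASTR point (by 1.82-fold, 2.28-fold and 3.61-fold).

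The same difference was called in all 3 genes at an FDR under 0.01, while 3.34% of the 9394 genes tested were higher in wmASTRs at that threshold. With a log2 fold change above 2 added, the background was 0.543%. The groups did not overlap in any of the 3 genes, against 3.09% of all genes with every wmASTR library above every gmASTR library and 2.69% with the opposite order. The 3 genes were picked by name with earlier results of these data known, so these shares describe the genes and do not test them. By p-value, *Postn* ranked 2nd, *Spp1* 24th and *Tnc* 36th among the 314 genes that were higher in wmASTRs. By size of the fold change they ranked 15th, 14th and 24th. The exact permutation test over the 924 divisions of the libraries gave p = 0.00216 (two-sided, the smallest that 6 against 6 allow) for each gene.

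Levels among all genes moved accordingly. The mean of *Tnc* lay at percentile 78.8 of the filtered table in gmASTRs and at percentile 96.9 in wmASTRs. *Spp1* moved from percentile 52.9 to 92.2 and *Postn* from 41.6 to 87.4. Without wmASTR replicate 4 the wmASTR percentiles were 95.3, 87.3 and 84.9. In gmASTRs the periostin transcript was thus below the median gene of the filtered table.

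The spread between cultures differed by gene and region. The coefficient of variation of *Tnc* was 49.0% in gmASTRs and 68.5% in wmASTRs. For *Spp1* it was 31.2% and 94.9%, and for *Postn* 34.5% and 41.1%. Without wmASTR replicate 4, the wmASTR values were 28.7%, 33.5% and 23.6%, below the gmASTR value for *Tnc* and *Postn*. Counting error was smaller than this spread, at most 7.00% for *Tnc*, 9.37% for *Spp1* and 15.6% for *Postn* in a single library. Of the variance of log2(CPM + 1) over the 12 libraries, the difference between regions took 75.5% for *Tnc*, 78.0% for *Spp1* and 87.1% for *Postn*. Without wmASTR replicate 4 these shares were 79.3%, 89.8% and 88.0%.

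Fold changes depended on wmASTR replicate 4 in size but not in direction. Without this culture, the log2 fold change was 2.12 for *Tnc*, 2.38 for *Spp1* and 2.76 for *Postn*. By group means, *Tnc* was then 4.14-fold, *Spp1* 4.97-fold and *Postn* 6.45-fold higher in wmASTRs, so that *Postn* and not *Spp1* had the largest fold of means. The fold of *Spp1* moved most. With gmASTR replicate 5 left out as well, the culture whose omission raised the number of genes called the most, the log2 fold changes were 2.01, 2.31 and 2.87 (an alternative chosen after the data were seen). The highest edgeR FDR over all 12 libraries left out in turn was 0.000990 for *Tnc*, 0.000658 for *Spp1* and 7.39e-05 for *Postn*.

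**Figure D2:**
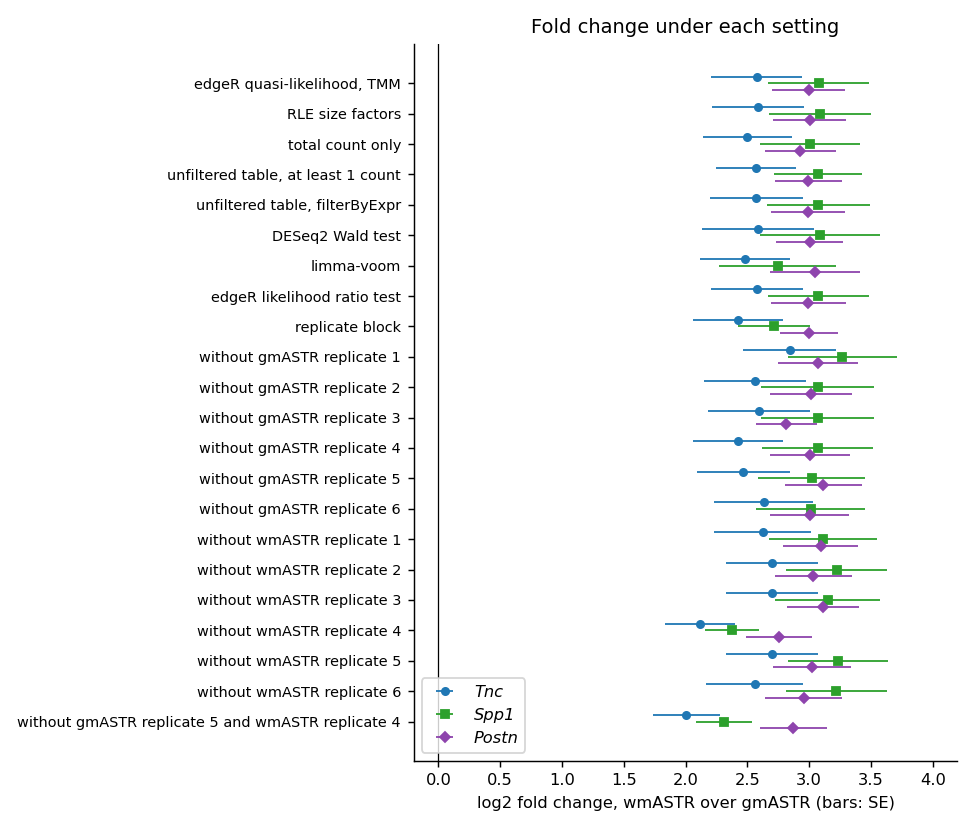
Log2 fold change (x axis, wmASTR over gmASTR) of *Tnc*, *Spp1* and *Postn* under each setting (y axis), with bars for the SE. Values lie between 2.01 and 3.27 throughout, and the settings without wmASTR replicate 4 shift *Tnc* and *Spp1* to the lower end.

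The order of the 3 transcripts was only partly fixed. *Tnc* was the most abundant in all 12 libraries and took 44.4% to 72.7% of the summed level of the 3 genes in gmASTRs and 51.5% to 65.3% in wmASTRs. *Spp1* and *Postn* changed places between cultures. *Postn* was above *Spp1* in 1 of 6 gmASTRs (replicate 5) and in 3 of 6 wmASTRs (replicates 2, 5 and 6). The mean log2 ratio of the 2 was smaller than its SD in both regions, so these neighbours in the order did not differ beyond the spread between cultures.

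Ratios within a library depend little on library scaling, and were used to ask whether 1 gene differed between the regions more than another. The log2 ratio of *Spp1* to *Tnc* was -1.44 ± 0.59 in gmASTRs and -1.23 ± 0.56 in wmASTRs, which differed by 0.22 (two-sided exact permutation p = 0.526, adjusted p = 0.621 over 3 ratios). The log2 ratio of *Postn* to *Tnc* was -2.10 ± 1.06 and -1.65 ± 0.46, which differed by 0.45 (exact permutation p = 0.366, adjusted p = 0.621). For *Spp1* to *Postn* it was 0.65 ± 0.76 and 0.42 ± 0.85, with -0.24 between the regions (exact permutation p = 0.621, adjusted p = 0.621). The ratios of single libraries overlapped between the regions for each pair. The data therefore did not separate the fold changes of the 3 genes from each other, which does not show that they were equal.

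Whether the 3 genes rose and fell together from culture to culture was examined within each region, since the regions form separate clusters. In wmASTRs, *Postn* and *Tnc* had Pearson's r = 0.82 (exact permutation p = 0.0486, adjusted p = 0.242 over 6 relations) and Spearman's rho = 0.71 (exact permutation p = 0.136, adjusted p = 0.817). Without replicates 3 and 4, the cultures farthest from the median of *Postn*, r was 0.13. *Spp1* and *Tnc* had r = 0.84 in wmASTRs (exact permutation p = 0.0806, adjusted p = 0.242) but rho = 0.37 (exact permutation p = 0.497, adjusted p = 0.988), and r was -0.32 without replicates 1 and 4. *Spp1* and *Postn* had r = 0.54 (exact permutation p = 0.269, adjusted p = 0.404) and rho = -0.0286 (exact permutation p = 1.0, adjusted p = 1.0). With replicates 1 and 4 left out, r of this pair was -0.92 over 4 cultures. No relation passed the adjustment, and the positive values in wmASTRs rested largely on replicate 4. Without replicate 4 alone, r was 0.10 for *Spp1* and *Tnc*, 0.35 for *Postn* and *Tnc* and -0.89 for *Spp1* and *Postn*. Without only the other culture left out above (replicates 1, 3 and 1), r was 0.84, 0.80 and 0.66.

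In gmASTRs, *Spp1* and *Tnc* had r = 0.58 (exact permutation p = 0.260, adjusted p = 0.404) and rho = 0.26 (exact permutation p = 0.658, adjusted p = 0.988), with r = -0.57 without replicates 1 and 5. *Postn* and *Tnc* had r = -0.15 (exact permutation p = 0.746, adjusted p = 0.895) and rho = -0.26 (exact permutation p = 0.658, adjusted p = 0.988), with r = 0.59 without replicates 3 and 5. *Spp1* and *Postn* had r = 0.0396 (exact permutation p = 0.912, adjusted p = 0.912) and rho = -0.0286 (exact permutation p = 1.0, adjusted p = 1.0), with r = -0.28 without replicates 1 and 5. Covariation of the 3 genes among the gmASTR cultures was thus not detectable. gmASTR replicate 1 was high in all 3 genes, with the highest *Tnc* and *Spp1* and the second highest *Postn* of its group. Replicate 3 had the lowest *Postn* with *Tnc* above the group mean of 88.5 CPM.

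**Figure D3:**
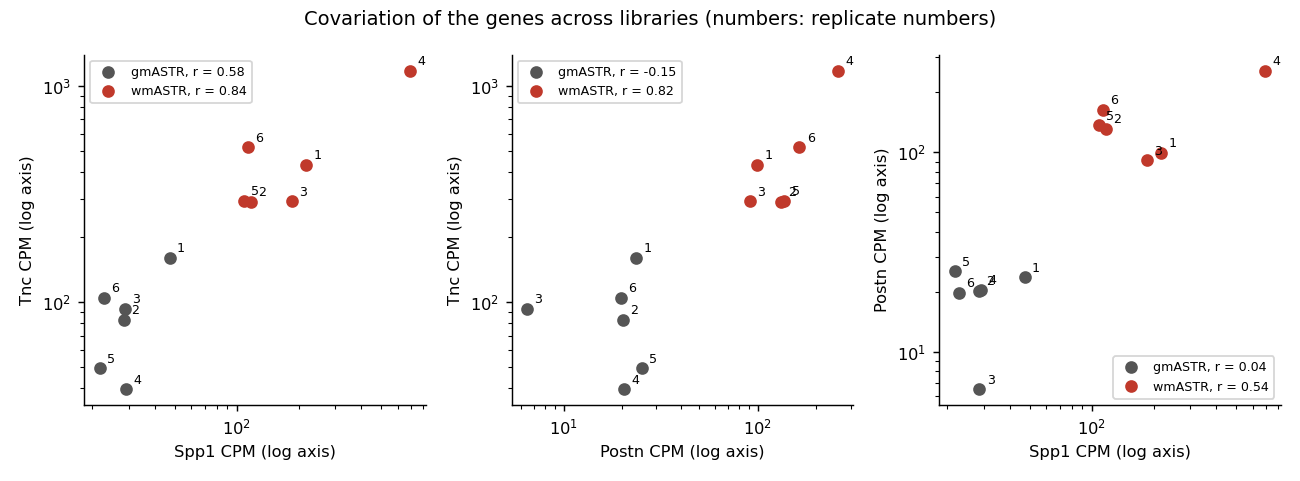
Levels of each pair of the 3 genes in CPM on log axes, 1 point per library with its replicate number, for gmASTRs and wmASTRs. Pearson's r, computed on log2(CPM + 1) within a region, is in each key, and wmASTR replicate 4 is the point farthest to the upper right in every panel.

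The genes whose deviations from the region mean were most like those of each gene were sought among the 718 named genes with a mean of at least 20 CPM. Likeness is Pearson's r over the 12 libraries after the mean of each region was subtracted from log2(CPM + 1), and is given as a description, since all values come from the same libraries. For *Tnc* the closest were the chemokine gene *Ccl2* (r = 0.81), the prostaglandin synthase gene *Ptgs2* (0.77), *Spp1* (0.71), the interleukin-33 receptor gene *Il1rl1* (0.71) and the complement gene *C1qa* (0.71). For *Spp1* they were the growth factor gene *Pdgfa* (0.79), *Fhl3* (0.76), *Tnfaip2* (0.72), *Tnc* (0.71) and *Rpusd4* (0.68). For *Postn* they were the lysosomal gene *Laptm5* of immune cells (0.80), the taste receptor gene *Tas1r2* (0.76), the latent TGF-β binding protein gene *Ltbp1* (0.75), *Snx30* (0.71) and *Tgfb2* (0.70), which encodes a TGF-β ligand.

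Part of these lists rested on 2 libraries. Without gmASTR replicate 5 and wmASTR replicate 4, 2 of the 5 genes stayed among the top 5 for *Tnc*, 1 for *Spp1* and 2 for *Postn*. *Ccl2* stayed first for *Tnc* with r = 0.91, whereas r between *Tnc* and *Spp1* was 0.29. Mean levels of *Ccl2* were 3.51 (gmASTR) and 42.6 CPM (wmASTR), and those of *C1qa* 21.4 and 99.6 CPM. Both were high in wmASTR replicate 4, at 97.6 and 213 CPM, as *Tnc* did.

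Genes that work with the 3 proteins were taken from 5 lists by role. Of 122 genes listed, 37 have a name here and 31 of those are in the filtered table. Names are known mostly for genes with a large or positive difference in favour of gmASTRs, or for genes the study displayed, so the lists are not complete and their counts are not a sample of all members. Of the 31 genes, 18 were higher in wmASTRs and 7 higher in gmASTRs at an edgeR FDR under 0.05, and 6 did not pass. Over all genes tested, 6.69% were higher in wmASTRs and 5.64% higher in gmASTRs at that threshold, and over the 1589 named genes 6.92% and 28.8%. The median log2 fold change was 0.79 over the 31 genes, -0.0210 over all genes tested and -0.65 over the named genes. Without wmASTR replicate 4, all 18 genes higher in wmASTRs and 6 of the 7 higher in gmASTRs still passed. The 6 named genes outside the filtered table are given by value with their lists.

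In the list of receptors, of which 6 of 19 genes have a name here, 1 of 5 tested genes was higher in wmASTRs and 3 were higher in gmASTRs. The shares were 6.69% and 5.64% of all genes tested, and 6.92% and 28.8% of named genes. Receptors without a name here were not measured. The 1 gene higher in wmASTRs was the integrin subunit *Itga1*, which is known for binding collagen and not as a main receptor of the 3 proteins. It had 25.3 ± 10.5 (gmASTR) and 157 ± 73.3 CPM (wmASTR) (log2 fold change 2.70, SE 0.29, edgeR FDR = 2.05e-05). Annexin A2 (*Anxa2*), a cell surface receptor of tenascin-C, was lower in wmASTRs at 877 ± 65.9 against 1505 ± 81.5 CPM (log2 fold change -0.72, edgeR FDR = 4.21e-05). The heparan sulphate co-receptor *Sdc4* (1261 against 726 CPM, log2 fold change -0.73) and *Egfr*, the receptor that EGF-like repeats of tenascin-C can bind (15.9 against 3.77 CPM, log2 fold change -1.99), were higher in gmASTRs. *Cd44*, the receptor of osteopontin and hyaluronan, had 36.2 ± 6.87 (gmASTR) and 46.3 ± 3.81 CPM (wmASTR) which did not pass the test (log2 fold change 0.42, edgeR FDR = 0.0989). Outside the filtered table, the laminin-binding integrin subunit *Itga7* was low in both groups and higher in wmASTRs, at 1.10 ± 1.34 and 7.77 ± 5.20 CPM (log2 fold change 2.86, edgeR FDR = 0.0362 in the unfiltered table). The median log2 fold change of the 5 genes was -0.72.

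The 5 other matricellular genes of the filtered table that are reported here were higher in wmASTRs, with a median log2 fold change of 1.34. Thrombospondin-2 (*Thbs2*) had 59.1 ± 16.0 (gmASTR) and 168 ± 48.7 CPM (wmASTR) (log2 fold change 1.57, edgeR FDR = 7.14e-05). The CCN family gene *Cyr61* had 678 ± 245 and 1537 ± 265 CPM (log2 fold change 1.24, edgeR FDR = 0.000623), and *Mfge8*, a bridging protein for apoptotic cells, 929 ± 276 and 2752 ± 1337 CPM (log2 fold change 1.63, edgeR FDR = 0.000691). The other two, *Fbln5* and *Nov*, had log2 fold changes of 0.51 (edgeR FDR = 0.0114) and 1.34 (edgeR FDR = 0.0139, and 0.0417 without wmASTR replicate 4). Outside the filtered table and named after its values were seen, the fibulin gene *Fbln2* was at 1.74 ± 2.29 and 80.8 ± 51.5 CPM. *Spock3*, named likewise, was higher in gmASTRs with 30.9 ± 25.5 and 1.52 ± 2.98 CPM (log2 fold change -4.16, edgeR FDR = 0.00268 in the unfiltered table). *Dmp1*, also outside the filtered table, had 1.87 ± 2.27 and 1.25 ± 1.13 CPM and did not pass the test (edgeR FDR = 0.848).

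Of the matrix partners, 4 of 5 were higher in wmASTRs. The collagen crosslinking enzyme *Lox* had 1004 ± 165 (gmASTR) and 2031 ± 186 CPM (wmASTR) (log2 fold change 1.08, edgeR FDR = 2.05e-05), and *Col12a1*, a collagen of the fibril surface, 85.9 ± 13.5 and 216 ± 50.6 CPM (log2 fold change 1.39, edgeR FDR = 2.68e-05). The proteoglycan versican (*Vcan*) was higher by 1.29 on the log2 scale. The fibrillar collagen *Col3a1* was higher in gmASTRs (1782 ± 427 against 1116 ± 207 CPM, log2 fold change -0.62, edgeR FDR = 0.0109). Fibronectin (*Fn1*), the most abundant of the list and a ligand of both tenascin-C and periostin, had 3287 ± 717 and 4640 ± 877 CPM (log2 fold change 0.56, edgeR FDR = 0.0162), with overlapping libraries.

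Among enzymes and inhibitors that act on the 3 proteins, 3 of 4 were higher in wmASTRs. The crosslinking enzyme transglutaminase-2 (*Tgm2*) had 22.4 ± 18.5 and 96.8 ± 27.9 CPM (log2 fold change 2.17, edgeR FDR = 0.00391). The metalloproteinase inhibitor *Timp1* had 179 ± 38.5 and 270 ± 35.7 CPM (log2 fold change 0.65, edgeR FDR = 0.00576). *Mmp12*, the macrophage metalloelastase, had 8.82 ± 8.33 and 47.6 ± 25.9 CPM (log2 fold change 2.49, edgeR FDR = 0.00922). *Adamts9* had a log2 fold change of -1.86 and did not pass the test (edgeR FDR = 0.0650).

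Of 12 tested inducers and regulators, 5 were higher in wmASTRs and 3 in gmASTRs. The ligand gene *Tgfb2* had 211 ± 78.3 (gmASTR) and 515 ± 103 CPM (wmASTR) (log2 fold change 1.34, edgeR FDR = 0.000474), and *Ltbp1*, which stores TGF-β in the matrix, 4.61 ± 4.56 and 61.0 ± 42.0 CPM (log2 fold change 3.81, edgeR FDR = 0.000590). Both were among the 5 genes most like *Postn* over 12 libraries, but at ranks 15 and 11 without gmASTR replicate 5 and wmASTR replicate 4. *Ltbp2* was higher in wmASTRs by 1.37 on the log2 scale (edgeR FDR = 0.000667). *Ankrd1*, a target of mechanical signalling, and *Pdgfa* were also higher in wmASTRs, by 2.41 and 0.87. *Snai2*, a transcription factor of mesenchymal cells, was at 133 ± 62.8 (gmASTR) and 29.9 ± 10.5 CPM (wmASTR) (log2 fold change -2.08, edgeR FDR = 6.40e-05), and *Smad3* and *Ltbp3* were higher in gmASTRs too. The log2 fold change of *Ltbp3* was -0.67, with an edgeR FDR of 0.0234 that was 0.0512 without wmASTR replicate 4 and at most 0.0711 with any 1 library left out. *Tgfb1* had 10.1 and 6.15 CPM and its receptor *Tgfbr2* 16.2 and 10.3 CPM, and neither passed the test (edgeR FDR = 0.469 and 0.272). *Twist1* and *Bmp4*, with log2 fold changes of -0.75 and 0.79, did not pass either. Outside the filtered table, the growth factor gene *Fgf2* was at 0.376 ± 0.611 and 5.47 ± 2.56 CPM (log2 fold change 3.88, edgeR FDR = 0.0124 in the unfiltered table), and *Yap1* at 1.58 ± 2.30 and 0.715 ± 1.11 CPM did not pass the test (edgeR FDR = 0.705).

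**Figure D4:**
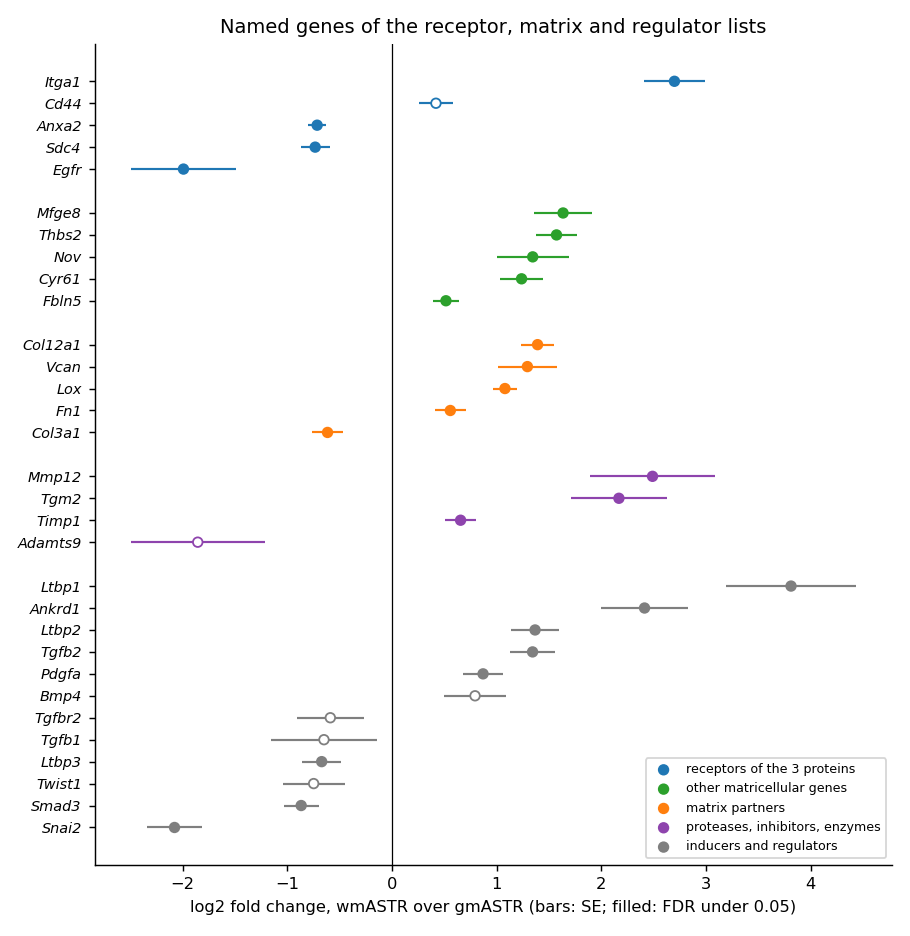
Log2 fold change (x axis, wmASTR over gmASTR, bars for the SE) of the 31 named genes of the 5 lists, grouped by role and ordered by size. Filled points have an edgeR FDR under 0.05, and the 5 matricellular genes drawn, all from the filtered table, lie to the right of 0. Genes of the receptor and regulator lists lie on both sides.

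The markers of other cell types that moved with the 3 genes were read from lists of which only the named part could be measured. For microglia and macrophages 10 of 21 markers have a name, and 9 of the 10 were higher in wmASTRs at an edgeR FDR under 0.05, against 6.69% of all genes and 6.92% of named genes in the filtered table. Their summed level was 21.1 to 95.5 CPM in gmASTRs and 151 to 528 CPM in wmASTRs, and no marker was at or below 3 counts in every gmASTR library. wmASTR replicate 4, which had the highest *Tnc*, *Spp1* and *Postn*, also had the highest microglial sum, 528 CPM against at most 212 CPM in the other wmASTRs. gmASTR replicate 1, which had the highest *Tnc* and *Spp1* of the gmASTRs, had the highest sum of that group, 95.5 CPM. In wmASTRs, replicate 1 had the second highest sum (212 CPM) and the second highest *Spp1*, and replicate 5 the lowest of both (151 and 108 CPM). wmASTR replicate 6 had the third highest sum (199 CPM) with the second lowest *Spp1* (113 CPM), and wmASTR replicate 3 the second lowest sum (178 CPM) with the third highest *Spp1* (184 CPM). The order of the libraries was thus shared only in part in either group. gmASTR replicate 6 had the lowest microglial sum, 21.1 CPM, with the second highest *Tnc*, and gmASTR replicate 5 had the third highest sum, 49.6 CPM, with the lowest *Spp1*. The part of these cells in the levels of the 3 genes was not tested.

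Both named markers of pericytes and smooth muscle, of 9 listed, were higher in wmASTRs at an edgeR FDR under 0.05, against 6.69% of all genes tested and 6.92% of named genes. Their sum was 29.2 to 172 CPM in gmASTRs and 376 to 943 CPM in wmASTRs, with the highest value again in wmASTR replicate 4 and at most 523 CPM in the others. The 8 named of 15 fibroblast and leptomeningeal markers were higher in gmASTRs in sum, at 2608 to 7552 CPM in gmASTRs and 1105 to 1867 CPM in wmASTRs. Of the 8 markers, 4 were higher in gmASTRs and 2 higher in wmASTRs. The shares were 5.64% and 6.69% of all genes tested, and 28.8% and 6.92% of the named genes in the filtered table. wmASTR replicate 4 was 5th of 6 in this list and lowest of 6 in the astrocyte sum. Its astrocyte markers went in both directions. *Gja1* (2226 CPM), which makes up much of the sum, and *Slc4a4* (5.14 CPM) were the lowest of the wmASTRs. *Gfap* (10.6 CPM), *Aqp4* (5.10 CPM) and *Vim* (2455 CPM) were the highest. *Slc1a3* (20.4 CPM), *Aldoc* (12.4 CPM) and *Fgfr3* (3.34 CPM) lay between the lowest and the highest wmASTR. Endothelial (3 of 11 named), oligodendrocyte lineage (6 of 14 named) and neuronal markers (2 of 5 named) summed to at most 28.2, 133 and 34.5 CPM in gmASTRs, and to 29.1 to 315, 155 to 262 and 13.1 to 39.4 CPM in wmASTRs. At an edgeR FDR under 0.05, 1 of the 3 endothelial markers (*Esam*) was higher in wmASTRs, 4 oligodendrocyte lineage markers were higher in wmASTRs with 1 in the opposite direction, and 1 neuronal marker was higher in each group. In each of the endothelial, oligodendrocyte and neuronal lists wmASTR replicate 4 had the highest sum, and the other wmASTRs reached at most 229, 227 and 19.1 CPM. The part of these markers was not tested.

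**Figure D5:**
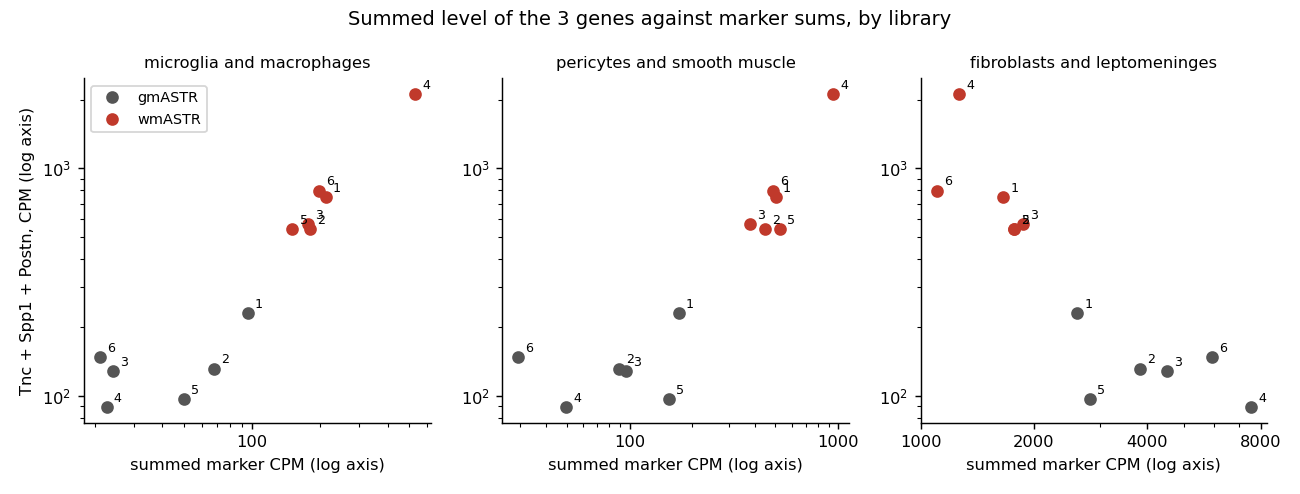
Summed level of *Tnc*, *Spp1* and *Postn* (y axis, CPM, log axis) against the summed level of named markers (x axis, CPM, log axis) of microglia and macrophages, of pericytes and smooth muscle, and of fibroblasts and leptomeninges, 1 point per library with its replicate number. wmASTR replicate 4 lies at the top right in the microglial and pericyte panels (528 and 943 CPM) and at the left in the fibroblast panel (1267 CPM).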

How the data were processed

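RNA of 6 gmASTR and 6 wmASTR cultures was sequenced as 3′ libraries. Per the labels and methods, the authors used HISAT (0.1.5) for alignment, SAMtools (1.2) for sorting and HTSeq (0.6.1p1, union mode, no strand) to count reads per Ensembl gene. The deposited values are unnormalized read counts, 1 column per library, in a table of 17941 genes and a filtered table of 9394 genes. The methods name the rat genome, whereas the submitters' notes list a mouse build, so no coordinates of counted genes are given. Because strand was not used, reads of overlapping or antisense genes cannot be told apart. Molecular identifiers are not mentioned, so counting errors leave duplicate reads uncovered.

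From these counts, CPM and fold changes were computed with edgeR (4.0.16) in R (4.3.3), by TMM and a quasi-likelihood test of region with Benjamini-Hochberg adjustment over 9394 genes. Calls over all genes used an FDR of 0.01, and single genes and lists 0.05. The procedure was tested on simulated data. Named genes outside the filtered table were tested in the unfiltered one. Ratios and correlations used log2(CPM + 1) and exact permutation tests, over 924 divisions for the ratios and 720 orders for the correlations, in Python (3.11.15). Packages were scipy (1.17.1), numpy (2.4.6), pandas (2.3.3) and, for figures, matplotlib (3.10.9). Alternatives used DESeq2 (1.42.0), limma (3.58.1), other scalings, filters and pseudocounts, the replicate number as a block and each library left out. Gene names came from the study's gene list, which pairs 2005 of the names used with an identifier. A further 84 names were matched to a gene through the 12 CPM values listed for them (*Gfap* among them). Upstream sequences came from RefSeq (GRCr8), where all 3 genes matched by symbol.

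The 3 genes, the lists and the motifs were chosen with earlier results of these data known, and the sequence window and the motifs TATANA and TTTAAA after the sequences were seen. Genes named are the 3 genes, up to 4 genes of each list at an FDR under 0.05 with the smallest FDR, others of a list that were singled out after their values were seen, and the 5 named genes most like each of the 3. In addition, 1 gene was left out of the lists and is not reported here.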

Additional observations from a re-analysis of the deposited data

Results flagged for a closer look

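Of 12 groups of values tested for a library that stands apart from the other 5 of its group, 4 had one. The 4 were flagged on CPM without a log, and the rate of about 1 in 20 groups by chance assumes normal values. The count is therefore not read as an excess over chance. *Tnc* was highest in wmASTR replicate 4 at 1175 CPM, and *Spp1* was highest in the same library at 690 CPM. *Spp1* was highest among gmASTRs in replicate 1 at 47.4 CPM. *Postn* was lowest in gmASTR replicate 3 at 6.48 CPM. The cause of these values was not tested.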

How the results depend on the processing

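The 3 log2 fold changes kept their direction and passed an FDR of 0.05 under every alternative run. They ranged from 2.12 to 2.84 (*Tnc*), 2.38 to 3.27 (*Spp1*) and 2.76 to 3.12 (*Postn*) with each library left out in turn. With the replicate number as a block they were 2.42, 2.72 and 3.00. Labels and methods do not say that equal numbers mark 1 animal. Same-numbered libraries did not deviate together (correlations of -0.0324 to 0.0112) and none correlated best with its own number. The block gave 147 genes higher in gmASTRs at an FDR under 0.01 instead of 239, and DESeq2 gave 378, with 479 instead of 314 higher in wmASTRs. With each library left out these counts ranged from 149 to 363 and from 217 to 498. Without gmASTR replicate 5 they were 363 and 498, and without gmASTR replicates 3 or 6 the gmASTR count was 153 or 149. Scaling by total count only turned the balance, with 308 genes higher in gmASTRs and 283 in wmASTRs. At an FDR under 0.05 that scaling gave 691 and 533, instead of 530 and 628. Of the list genes, the block changed the call of *Bmp4* (FDR 0.0285 instead of 0.0868) and *Ltbp3* (0.0635 instead of 0.0234). The cause was not tested. With each library left out, the regional difference in log2 ratio ranged from -0.44 to 0.0312 for *Spp1* to *Postn* (turned without gmASTR replicate 3), from 0.0728 to 0.42 for *Spp1* to *Tnc* and from 0.14 to 0.69 for *Postn* to *Tnc*. With a pseudocount of 5 CPM they were -0.13, 0.13 and 0.26. None of these passed the test. Correlations that turned were those of *Spp1* and *Tnc* (-0.0579 to 0.80), *Postn* and *Tnc* (-0.47 to 0.0156) and *Spp1* and *Postn* (-0.48 to 0.26) in gmASTRs, and of *Spp1* and *Postn* in wmASTRs (-0.89 to 0.67). By Spearman's rho the last pair had -0.0286 in either region. At this depth counting error limits *Postn* in gmASTRs most.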
